A study of Saccharomyces cerevisiae with 24 samples.

Results

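The arrays compared here are the last and the first of each culture in a temperature series of baker's yeast, Saccharomyces cerevisiae strain S288C. They were chosen by their labels as the 24 h and the 0 min arrays of the 3 cultures, 6 of the 24 arrays in all. Cells were grown in SD medium, a defined minimal medium, at 28 °C to an optical density of 1. One culture was then moved to 10 °C (cold), one to 37 °C (heat), and one stayed at 28 °C (control), and each was sampled 8 times within 24 h with 1 array per time. The 0 min groups at 10 °C and 37 °C are therefore the start samples of those series. No group carries a genetic change beyond the strain, and no agent other than temperature and time in the medium is named. RNA of the control and cold cultures was amplified with an Ambion kit, and RNA of the heat culture with a Roche target amplification kit followed by the Ambion transcription step. Kit and heat series cannot be told apart. The question is which transcripts moved the same way over 24 h at all 3 temperatures, and where 1 temperature departed from the others.

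Yeast in a batch culture takes up the richest sugar first and represses genes for other fuels while glucose lasts. As glucose runs low, cells derepress high-affinity transporters, gluconeogenesis and respiration, store glycogen and trehalose, slow ribosome production and leave the division cycle. Cold slows growth and stiffens membranes, while heat induces chaperones that refold proteins.

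Levels are log2 values summarised by RMA, an array method that equalises brightness between arrays, and a shift is the 24 h level minus the 0 min level of the same culture, so 1 unit is a 2-fold difference. All 5449 genes with a named yeast probe set were tested. The shared shift is the mean of the 3 shifts, and limma tested it against the differences between the 3 temperatures (adjusted p under 0.05 over all genes). A departure is the shift of 1 culture minus the mean shift of the other two, and limma tested it against the spread between neighbouring times of the same culture, since each group has 1 array. A gene was called departing when it passed that test and its culture was also the odd one, lying outside both others and farther from the nearer one than they lay from each other. Neither test covers differences between repeated cultures.

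The 0 min arrays at 10 and 28 °C were close (Pearson r of levels across genes 0.990, n = 5449 genes), whereas the heat start correlated with them at 0.708 and 0.703. At 24 h the level correlations were 0.783 for 10 against 28 °C, 0.549 for 10 against 37 °C and 0.652 for 28 against 37 °C. Shifts showed no steady rise or fall with coding length (Spearman rho between -0.014 and 0.005 across genes). Median shifts of 5 length bins lay between -0.12 and 0.16, highest in bin 4 and lowest in bin 5, the longest genes, in every culture. Among 1746 probe sets of other species, which mark the background, none moved by at least 2-fold at 10 or 28 °C and 11 did at 37 °C. Their mean levels had a 95th percentile of 6.53, and levels near or under that bound are called dim here, because RMA compresses their changes.

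The shifts were widest in the unshifted culture and narrowest in the cold one. At least 2-fold higher at 24 h were 760 genes at 10 °C, 1106 at 28 °C and 905 at 37 °C, and at least 2-fold lower were 707, 1119 and 935. The SD of the shift over genes was 1.03 at 10 °C, 1.41 at 28 °C and 1.22 at 37 °C. Across genes the shift at 28 °C correlated with that at 37 °C at r = 0.719, while the shift at 10 °C correlated at 0.480 with 28 °C and at 0.447 with 37 °C. These pairs share no array, although each pair shares the strain, the medium and the same probe sets. The sign of the shift was the same in all 3 cultures for 2990 genes (54.87%). By size alone, 249 genes (4.57%) were at least 2-fold higher in all 3 cultures and 195 (3.58%) at least 2-fold lower.

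**Figure D1:**
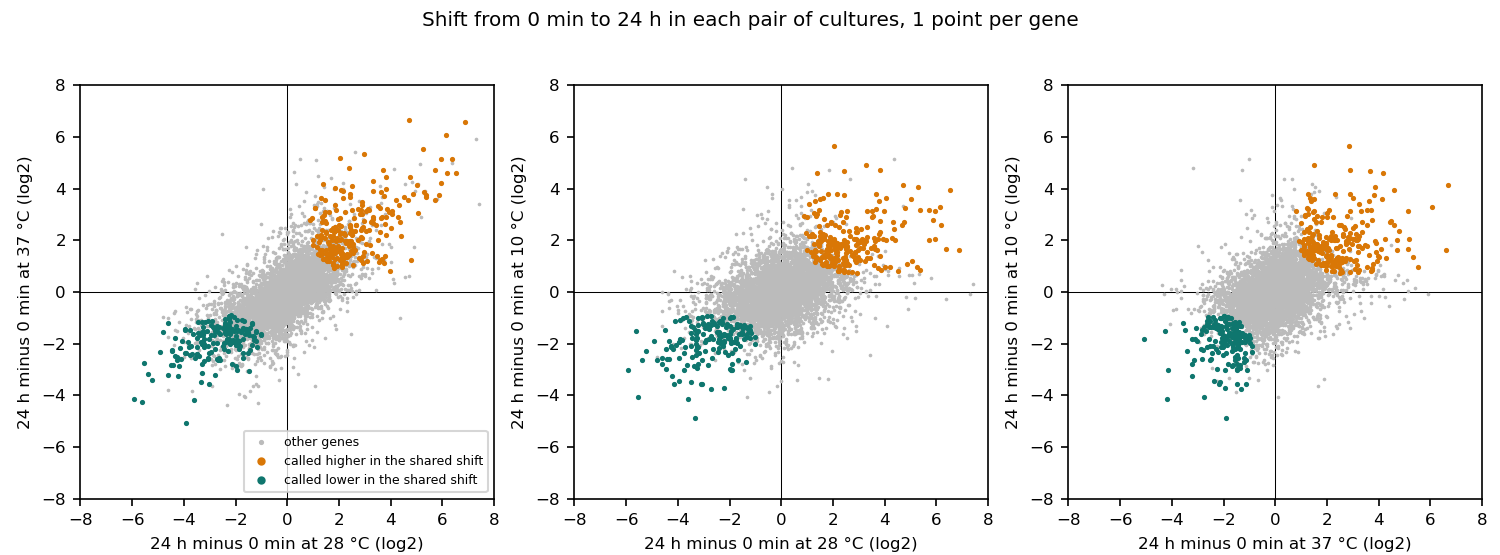
Each panel plots the 24 h minus 0 min shift (log2) of 1 culture against that of another, 1 point per gene, with genes called in the shared shift in colour. The cloud is narrowest for 28 against 37 °C (r = 0.719), and the coloured genes lie in the quadrants where both shifts have 1 sign.

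In the limma fit 238 genes (4.37% of those tested) rose and 171 (3.14%) fell in the shared shift, all 409 with the same sign in the 3 cultures. Of them 214 rose and 161 fell by at least 2-fold in every culture. In bulk RNA, fewer cells of a state and less RNA per cell cannot be told apart. The count rests on the 28 °C culture, since without it the fit called 19 genes, and without the 37 °C culture 229.

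GAC1 and HSP30 had the highest shared shifts. GAC1, which targets the Glc7 phosphatase to glycogen synthase, went from 7.66 to 11.81 at 10 °C, from 8.41 to 13.12 at 28 °C and from 5.47 to 12.14 at 37 °C. Its shared shift was 5.17 ± 0.52 (SE, n = 3 cultures, adjusted p = 0.016), and the lowest 24 h level lay above the highest start. HSP30, a plasma membrane stress protein that restrains the proton pump, stood at 8.48, 8.63 and 7.68 at 0 min and at 11.77, 14.78 and 13.77 at 24 h (10, 28 and 37 °C, in that order here and below). The groups did not overlap, and the shared shift was 5.18 ± 0.60 (SE, adjusted p = 0.020).

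JEN1, the lactate and pyruvate permease that glucose represses, had starts of 7.68, 7.63 and 8.71 and 24 h levels of 9.35, 14.01 and 13.86. Every 24 h level lay above every start, but the cold culture moved by 1.68 only, against 6.37 at 28 °C and 5.15 at 37 °C. The shared shift of JEN1 was 4.40 ± 0.82 (SE, adjusted p = 0.032). MTH1, a repressor of hexose transporter genes that is active when glucose is scarce, went from 8.09, 8.49 and 9.53 to 10.79, 13.25 and 13.97. Its shared shift was 3.96 ± 0.47 (SE, adjusted p = 0.020). REG2, a regulatory subunit of Glc7, went from 7.70, 7.61 and 9.10 to 10.87, 13.31 and 12.66, again without overlap.

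The other genes among the 12 with the highest shared shift were ISF1 (5.03), DSF1 (4.45), BNA2 (4.25), YIG1 (4.14), ATO2 (4.13), MRK1 (4.08) and CSR2 (4.07). BNA2 encodes the first enzyme of NAD synthesis from tryptophan, ATO2 an ammonium exporter, MRK1 a GSK-3 type kinase and CSR2 an adaptor for removing transporters from the membrane. The probe set of DSF1 can match more than 1 transcript. In all of these 7 genes the smallest shift was the one at 10 °C, from 1.99 for YIG1 to 3.94 for ISF1.

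RNR1 and CDC21, both of nucleotide synthesis for DNA, had the lowest shared shifts. RNR1, the large subunit of ribonucleotide reductase, started at 12.87, 12.89 and 13 and ended at 9.86, 6.96 and 8.86. The starts lay close together, and all 24 h levels lay far below them. Its shared shift was -4.36 ± 0.56 (SE, adjusted p = 0.022). CDC21, thymidylate synthase, went from 11.70, 11.84 and 12.85 to 7.62, 6.29 and 10.09, with a shared shift of -4.13 ± 0.54 (SE, adjusted p = 0.022). POL30, the sliding clamp of DNA replication, went from 12.61, 12.82 and 12.35 to 10.34, 7.57 and 8.94, and the groups did not overlap.

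CLB6, an S phase cyclin, went from 10.38, 10.46 and 9.76 to 7.12, 6.23 and 6.52, which put it near the dim bound at 24 h in all 3 cultures. PCL1, a G1 cyclin of the Pho85 kinase, had a start of 8.04 at 37 °C against 10.93 and 11.31, and ended at 8.31, 5.94 and 4.88. Its groups overlapped, although each culture moved down by at least 2-fold. UTR2, an enzyme that links chitin to glucan in the wall, showed the widest difference among these genes between cold and control, with a shift of -1.52 at 10 °C and -5.64 at 28 °C. The remaining genes of the lowest 12 were INA1 (-3.98), MF(ALPHA)2 (-3.61), MKC7 (-3.54), HO (-3.38), GAS3 (-3.30) and SFG1 (-3.28). HO, the mating-type endonuclease, and GAS3, of a wall glucanosyltransferase family, had the smallest shifts of these 6 at 37 °C (-1.92 and -2.17).

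**Figure D2:**
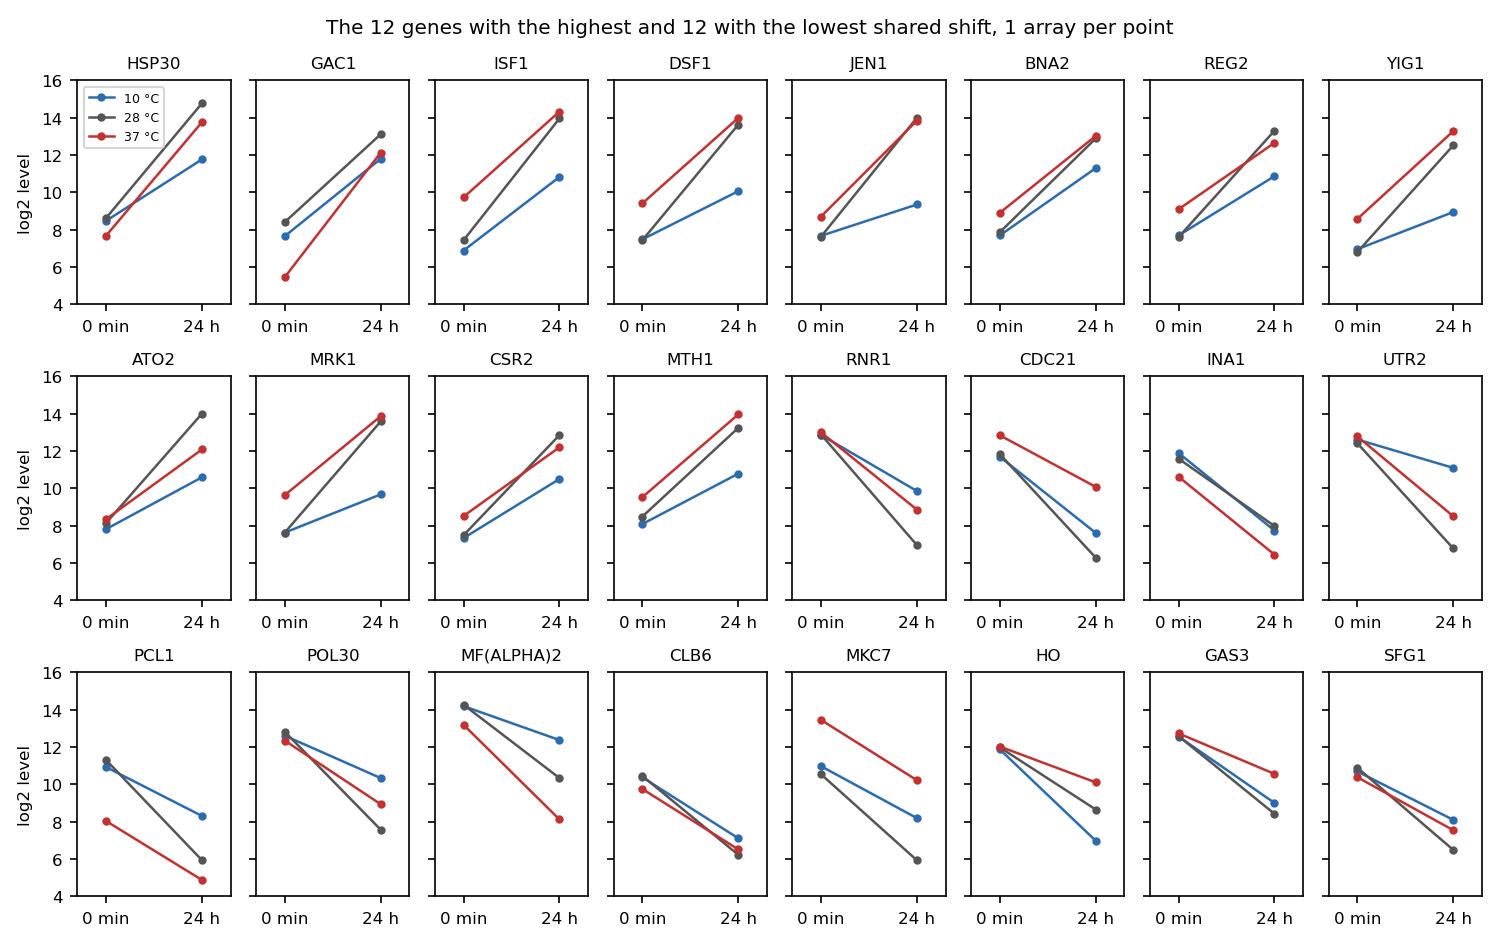
Each panel plots the log2 level of 1 gene at 0 min and 24 h in the 10 °C (blue), 28 °C (grey) and 37 °C (red) cultures, 1 array per point. The 24 genes were picked among called genes with 1 sign in the 3 cultures. In all 12 rising genes the cold line is the flattest.

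Genes for making glucose and for using fuels other than glucose rose in part. In gluconeogenesis and the glyoxylate cycle 5 of 21 genes rose (23.8%, against 4.37% of all genes), and the median shifts were 1.27, 2.09 and 0.38. PCK1, which opens gluconeogenesis, went from 8.60, 8.82 and 10.18 to 10.60, 13.23 and 12.35, a shared shift of 2.86 ± 0.52 (SE, adjusted p = 0.032). MLS1, malate synthase, had nearly equal shifts of 1.93, 2.09 and 1.45 (adjusted p = 0.032). ICL1, isocitrate lyase, did not pass (0.91 ± 0.48, SE, adjusted p = 0.24), and its level stood at 11.32, 10.23 and 9.55 at 24 h.

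Of 14 hexose transporter and glucose-sensing genes 2 rose (14.3%, against 4.37% of all genes) and 1 fell (7.14%, against 3.14%). HXT1, the low-affinity transporter made at high glucose, fell by 2.60 on the log2 scale (SE 0.39, adjusted p = 0.025), from 13.26, 13.19 and 13.88 to 10.49, 9.99 and 12.05. HXT3 did not move together, with shifts of 0.35, -1.24 and 0.20. Other transporters also differed between the cultures. HXT5 had shifts of 2.87, 0.91 and 0.72 and HXT7 of -0.44, 1.10 and 2.07, and neither passed. The probe set of HXT7 can match more than 1 transcript, and its near-identical neighbour HXT6 was not measured separately. In peroxisomal fatty acid oxidation 4 of 18 genes rose (22.2%), among them IDP3 (2.72 ± 0.51, SE) and SPS19 (2.28 ± 0.35, SE), enzymes that supply reducing power and handle double bonds. POX1, the first oxidase of that pathway, was at 0.84 ± 0.37 (SE) and did not pass. In the tricarboxylic acid cycle 1 of 19 rose (5.26%, near the 4.37% of all genes), CIT3, a mitochondrial citrate synthase, at 2.64 ± 0.60 (SE).

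Storage and stationary phase genes rose in part. Of 24 stationary phase and quiescence genes 8 rose (33.3%, against 4.37% of all genes), with median shifts of 1.35, 1.24 and 0.92. SPG4, needed for survival in stationary phase, went from 9.64, 10.12 and 6.90 to 14.35, 13.93 and 9.78 (3.80 ± 0.43, SE, adjusted p = 0.020). The heat culture ended about where the others began, but its shift of 2.88 was of the same sign. MPC3, a subunit of the mitochondrial pyruvate carrier, had shifts of 2.91, 3.5 and 1.99. Of 20 trehalose and glycogen genes 4 rose (20%, against the same 4.37%), GAC1 and IGD1, an inhibitor of glycogen debranching, among them. TPS1, trehalose phosphate synthase, and GPH1, glycogen phosphorylase, did not pass, with shared shifts of 0.13 ± 0.39 and 0.06 ± 0.55 (SE). GPH1 stood at 14.37, 11.79 and 14.29 at 24 h, so the control lay below both shifted cultures.

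General stress genes and chaperones rose in part, with medians that differed between the cultures. Of 34 general stress genes 5 rose (14.7%, against 4.37% of all genes). The medians were 1.57 at 10 °C, 0.07 at 28 °C and 0.82 at 37 °C. HSP12, an abundant membrane-stabilising protein, was near the top of the scale at both times and shifted by 0.33, -0.53 and -0.64. CTT1, cytosolic catalase, shifted by 1.54, -2.09 and -0.01. Of 28 heat shock chaperones 5 rose (17.9%, against the same 4.37%). SSA4, an inducible Hsp70, was among them, going from 10.11, 10.70 and 11.33 to 12.33, 12.30 and 14.44 (2.31 ± 0.40, SE, adjusted p = 0.030). APJ1, a J-domain protein, shifted by 0.98, 4.20 and 3.55. HSP104, the disaggregase, and HSP26, a small chaperone, did not pass in the shared shift (adjusted p = 0.15 and 0.093). For both, the shifts were largest at 37 °C (3.51 and 3.05), from heat starts of 10.76 and 11.60 that lay below those of the other cultures. In oxidative stress defence 1 of 24 genes fell (4.17%, near the 3.14% of all genes). That gene was GPX2, a glutathione peroxidase, which fell by 2.33 on the log2 scale (shifts -2.31, -2.47 and -2.22).

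Amino acid biosynthesis, tRNA synthetase and cytosolic ribosomal protein genes had negative medians at all 3 temperatures, and few passed. Of 52 amino acid biosynthesis genes 4 fell (7.69%, against 3.14% of all genes), and the medians were -0.93, -0.78 and -0.63. LYS9, of lysine synthesis, fell by 2.75 on the log2 scale (SE 0.47), and ILV6, of branched-chain synthesis, fell by 1.84 (SE 0.34). Of 18 cytosolic tRNA synthetases 1 fell (5.56%), TYS1, with medians of the list at -1.03, -0.80 and -0.74. Of 127 cytosolic ribosomal protein genes 2 fell (1.57%, below the 3.14% of all genes). They were RPS28B (-2.29 ± 0.38, SE) and RPL18B (-1.58 ± 0.32, SE), whose probe sets may share signal with a near-identical copy. The list's shift was negative in 127 genes at 10 °C, 93 at 28 °C and 112 at 37 °C, with medians of -0.92, -0.08 and -1.0. Of 93 ribosome biogenesis genes, 34 translation factors and 69 mitochondrial ribosomal proteins 0 passed the limma test in either direction, and 7, 4 and 7 of them had an unadjusted p under 0.05. Ribosome biogenesis had medians of 0.19, 0.80 and -0.25.

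The list of G1 and S phase genes gave more falls than any other list examined. Of 45 genes of G1 and S phase 17 fell (37.8%), and the medians were -1.39, -2.52 and -1.04. MCD1, a cohesin subunit, fell by 3.26 on the log2 scale (SE 0.41, adjusted p = 0.021), and CLN2, a G1 cyclin, by 2.52 (SE 0.45, adjusted p = 0.031). Of 31 mitosis genes 6 fell (19.4%), among them FKH1, a forkhead factor of mitotic genes, and MYO1, the myosin of the contractile ring. Of 30 cell wall genes 7 fell (23.3%, against 3.14% of all genes) and 1 rose (3.33%), and of 9 histone genes 1 fell (11.1%), HTB2. Lipid genes were mixed. ELO2 and ELO3, which elongate fatty acids for sphingolipids, fell by 3.23 (SE 0.47) and 2.66 (SE 0.43), and of 23 ergosterol genes ERG5 alone fell (4.35%). OLE1, the fatty acid desaturase, shifted by -0.44, 0.24 and -0.11 and did not pass.

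Some uptake and developmental genes rose as well. In the iron regulon 4 of 26 rose (15.4%), among them FET4, a low-affinity iron and zinc transporter, at 3.33 ± 0.40 (SE), and FIT3, a wall mannoprotein that binds siderophores, at 1.92 ± 0.39 (SE). Of 46 meiosis and sporulation genes 7 rose (15.2%), REC8 and SPS100 among them, which are genes that haploid cells do not normally use. MND1, a recombination factor, started dim in all cultures (5.55, 5.63 and 4.99) and stood at 6.46, 9.37 and 8.72 at 24 h. Of 20 phosphate genes 1 rose (5.0%, near the 4.37% of all genes), PHM8. Of 24 nitrogen catabolite repressed genes DAL2 rose (4.17%) and DUR3 fell (4.17%). TIR1 and TIP1, wall mannoproteins known from cold shock, had shared shifts of 0.21 ± 0.33 and -0.37 ± 0.39 (SE), and NSR1, a nucleolar protein known from cold shock, 0.90 ± 0.39 (SE). None of the 3 passed, nor did ADH2, the ethanol-consuming alcohol dehydrogenase (0.58 ± 0.36, SE).

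The remaining lists gave few shared calls, against 4.37% of all genes higher and 3.14% lower. Of 27 autophagy genes 2 rose (7.41%). They were ATG1, the kinase that starts autophagy, with shifts of 1.81, 1.80 and 1.52, and ATG3, a conjugating enzyme, with 2.0, 2.44 and 2.30. The shifts of both were alike in the 3 cultures. MET3, which activates sulfate, was the only one of 23 sulfur amino acid genes (4.35%) called in the shared shift, at -3.0 ± 0.51 (SE). RPC25, a subunit of RNA polymerase III, was the only one of 27 polymerase genes (3.7%), at -1.81 ± 0.36 (SE). PAU3 alone of 14 TIR, DAN and seripauperin genes (7.14%) rose (2.0 ± 0.39, SE), from a probe set that can match more than 1 transcript. Limma called 0 of 20 glycolysis genes and 0 of 33 proteasome genes, with 1 gene of each list at an unadjusted p under 0.05.

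**Figure D3:**
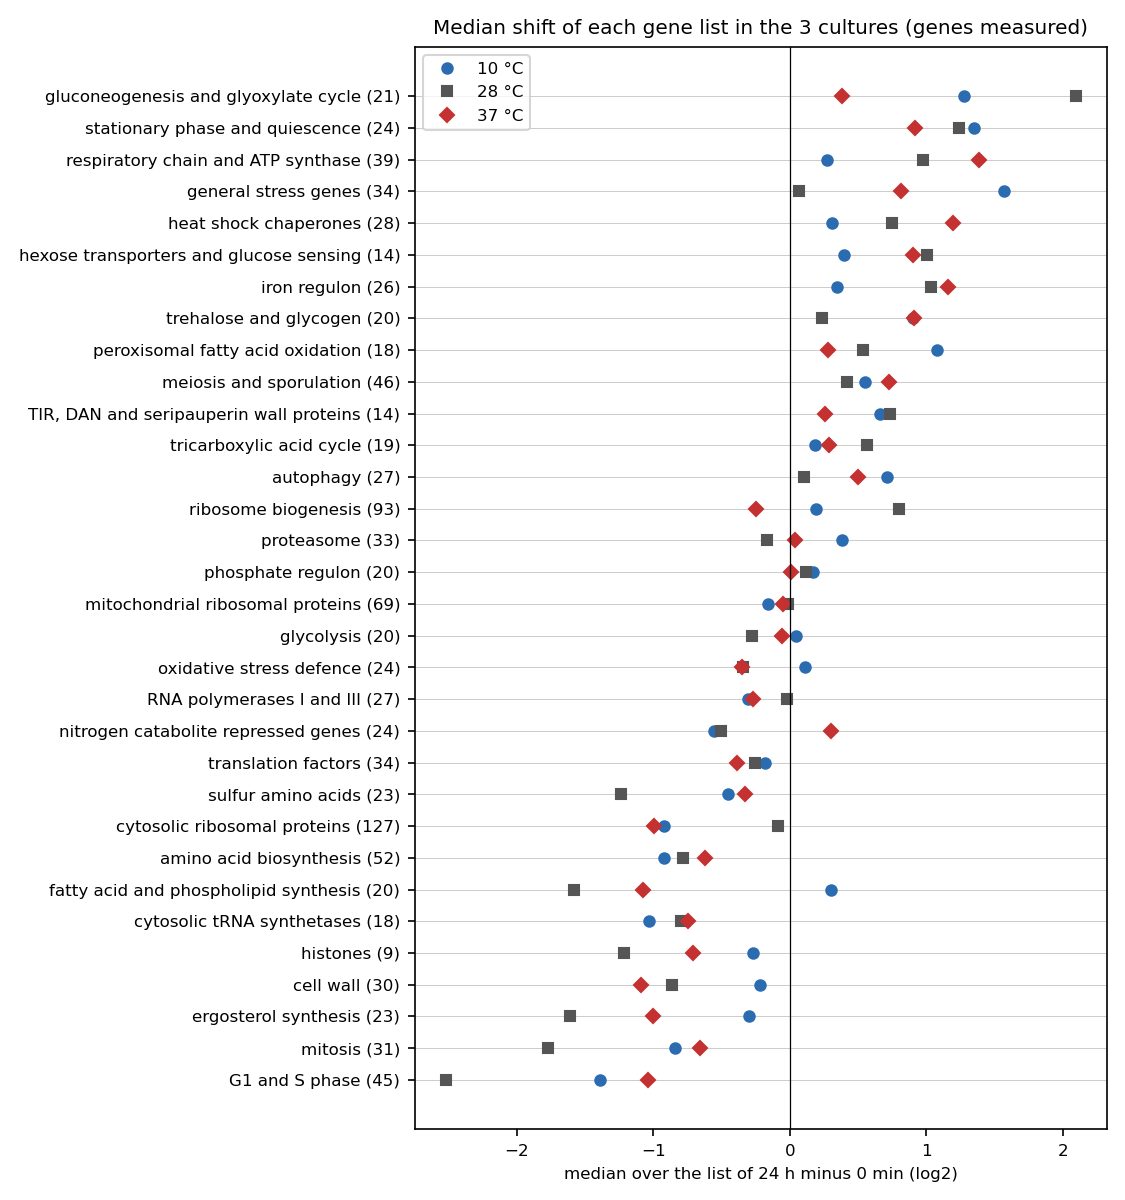
Points give the median 24 h minus 0 min shift (log2) over the measured genes of each list at 10 °C (circles), 28 °C (squares) and 37 °C (diamonds), with the number of genes in brackets. G1 and S phase is lowest in the control (-2.52), and general stress genes are highest in the cold culture (1.57) and near 0 in the control (0.07).

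The cold culture was the odd one most often. At 10 °C 556 genes (10.2%) departed upward and 520 (9.54%) downward, against 201 (3.69%) and 327 (6.0%) at 28 °C and 186 (3.41%) and 145 (2.66%) at 37 °C. For 613 of the 1076 cold genes the shift had the opposite sign to both others, which the call favours. The share of all genes with an opposed cold sign was not counted, but only 54.87% had the same sign in all 3 cultures. In all 1935 genes departed, and 104 of them were also called in the shared shift. The sizes of these counts depend on the spread used, and without the first-hour arrays they were 670, 259 and 144 genes.

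Of the 556 genes that departed upward at 10 °C, 411 (73.9%) had a positive shift in the cold, against 2788 of all 5449 genes. In both warmer cultures 470 (84.5%) had negative shifts. The call itself favours these signs, since it needs the cold shift to lie above both others. At 24 h 500 of the 556 ended above both other cultures, and of the 520 downward genes 464 ended below both. The call favours this too, since the 24 h level enters it, and the share over all genes was not counted. GAP1, the general amino acid permease, stood at 13.78 at 0 min and 13.76 at 24 h in the cold, but went from 13.98 to 9.35 at 28 °C and from 10.23 to 6.43 at 37 °C. The departure was 4.20 (limma adjusted p = 2.6e-06). FAR1, a cell cycle inhibitor of the mating response, held 12.48 and 12.58 in the cold and went from 12.51 to 8.82 and from 13.16 to 9.34 in the others (departure 3.86, adjusted p = 5.9e-05). ARO9, an aromatic aminotransferase, had the largest upward departure among the named genes, 6.17, with shifts of 4.78, 0.40 and -3.18 (adjusted p = 0.013). Its heat start of 10.36 lay above the starts of 6.84 at 10 °C and 7.40 at 28 °C. HRP1, an mRNA processing factor, had shifts of 1.25, -2.95 and -2.61. LRG1, which inactivates Rho1, had shifts of 0.80, -4.14 and -2.55. SHH4, a relative of a succinate dehydrogenase subunit, had shifts of 3.0, -0.80 and -1.14, and ARP10 and LAS17, of dynactin and of actin assembly, had departures of 3.85 and 3.65.

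Of the 520 genes that departed downward at 10 °C, 381 (73.3%) had a negative shift in the cold, against 2661 of all 5449 genes. In both warmer cultures 427 (82.1%) had positive shifts. Here too the call favours these signs. PRM7 stood at 7.06 and 6.97 in the cold, and went from 6.58 to 13.88 at 28 °C and from 7.39 to 13.29 at 37 °C (departure -6.69, adjusted p = 5.9e-05). MAL32, maltase, followed the same pattern, with 24 h levels of 7.28, 13.87 and 14.62 (departure -5.93). Its probe set can match more than 1 maltase gene. PUT1, proline oxidase, SMP1, a MADS-box factor, BSC1 and ZNF1, a factor of respiratory growth, had shifts between -1.0 and 0.95 in the cold and between 3.43 and 5.52 in the others. HPF1, a wall glycoprotein, went from 11.74 to 8.09 in the cold, with shifts of -0.17 and 1.66 in the others.

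CYC1, iso-1-cytochrome c, went down in the cold, as HPF1 did. It stood at 10.80, 10.70 and 9.32 at 0 min and at 7.44, 12.52 and 11.19 at 24 h, a departure of -5.21 (adjusted p = 0.00018). CYC7, the other cytochrome c gene, went up in all 3 cultures, from 10.54, 10.39 and 5.34 to 12.10, 13.72 and 9.23, and was called in the shared shift (2.93 ± 0.50, SE, adjusted p = 0.029). Of 39 genes of the respiratory chain and ATP synthase 16 departed downward at 10 °C (41.0%, against 9.54%), and the medians were 0.27, 0.98 and 1.39. The shift was positive in 28 genes at 10 °C, 39 at 28 °C and 38 at 37 °C. Of 28 chaperones 7 departed downward at 10 °C (25.0%).

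Lipid and proteasome genes were among those that departed upward at 10 °C. Of 23 ergosterol genes 9 departed upward at 10 °C (39.1%, against 10.2%) and 1 downward, with medians of -0.30, -1.62 and -1.0. ERG20, farnesyl pyrophosphate synthetase, stood at 13.06 and 12.97 in the cold and went from 13.14 to 10.43 and from 13.54 to 10.93 in the others (departure 2.58, adjusted p = 5.5e-06). Of 20 fatty acid and phospholipid genes 7 departed upward (35.0%) and 2 downward, with medians of 0.30, -1.58 and -1.08. CHO1, phosphatidylserine synthase, had shifts of 1.38, -2.38 and -1.08. Of 33 proteasome genes 9 departed upward at 10 °C (27.3%), by small amounts, since the medians were 0.38, -0.17 and 0.04. Of 14 TIR, DAN and seripauperin wall protein genes 5 departed upward (35.7%), PAU7 and TIR4 among them, and the probe sets of these near-identical families may share signal. Among other genes of these lists, TRX1, a cytosolic thioredoxin, shifted by 0.15, -2.88 and -2.68 (departure at 10 °C 2.94, adjusted p = 8.9e-05). FRE5, a ferric reductase, and NDI1, the internal NADH dehydrogenase, had downward departures of -3.94 and -2.37. FRE5 was higher at 24 h in every culture, from dim starts of 4.77, 4.42 and 5.32 to 5.45, 9.75 and 9.22, and stayed dim in the cold. In contrast, 10 of 127 cytosolic ribosomal protein genes departed downward (7.87%), which is below the 9.54% of all genes, and 8 of 69 mitochondrial ones (11.6%).

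Mitotic cyclins were among the genes that departed downward in the unshifted 28 °C culture. CLB2, the main mitotic cyclin, started at 9.83, 10.17 and 9.62 and ended at 9.74, 5.78 and 7.58. The control level at 24 h was dim, the cold level had hardly moved, and the departure was -3.33 (adjusted p = 0.00072). CLB1, its paralog, went from 11.90, 11.87 and 11.37 to 11.57, 7.61 and 9.87 (departure -3.34, adjusted p = 2.6e-05). HST3, a histone deacetylase of S phase chromatin, and MSA2, a G1 transcription activator, had departures of -3.46 and -3.68. Of 31 mitosis genes 10 departed downward at 28 °C (32.3%, against 6.0%) and of 45 G1 and S phase genes 12 (26.7%). Of all 327 downward departures at 28 °C 270 ended below both other cultures, and 141 of the 201 upward ones above both. The 24 h level enters the call, which favours this, and the share over all genes was not counted.

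The other low departures at 28 °C were ERS1, VEL1, AIM20 and ARI1, a reductase of aldehydes. ERS1 ended at 11.16, 6.79 and 5.54, but its heat start was already 6.35. VEL1 rested on its start, which was 12.58 at 28 °C against 5.80 and 4.94 in the other cultures. With the 10 and 28 °C starts averaged, its departure turned from -3.72 to 1.37. Of 34 general stress genes 3 departed downward at 28 °C (8.82%, near the 6.0% of all genes), and of 27 autophagy genes 4 (14.8%). ATG7, which activates the autophagy conjugation system, had shifts of 1.58, -2.11 and -0.16.

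Upward departures at 28 °C included transport and vitamin genes. HXT2, a high-affinity glucose transporter, went from 9.99, 10.23 and 11.32 to 7.54, 13.67 and 11.40, so it was lower in the cold, higher in the control and nearly level in the heat (departure 4.64, adjusted p = 0.019). AQY2, an aquaporin, went from 8.51 to 13.41 at 28 °C, with shifts of -0.67 and 1.74 in the cold and the heat. SNO1, of vitamin B6 synthesis, had a 24 h level of 11.95 at 28 °C against 7.61 and 10.05. Its neighbour in the pathway, SNZ1, shifted by -1.13, 1.58 and -0.62. RGI2, a protein of respiratory growth, was dim at all starts and reached 9.69 at 28 °C against 6.64 and 5.82. FRE7, a metal reductase, LDS2, a spore lipid droplet protein, VHR2, a transcription factor of biotin genes, and AAH1, adenine deaminase, had departures between 2.93 and 3.80. Of 24 stationary phase genes 5 departed upward (20.8%, against 3.69% of all genes), and of 21 gluconeogenesis genes 3 (14.3%).

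**Figure D4:**
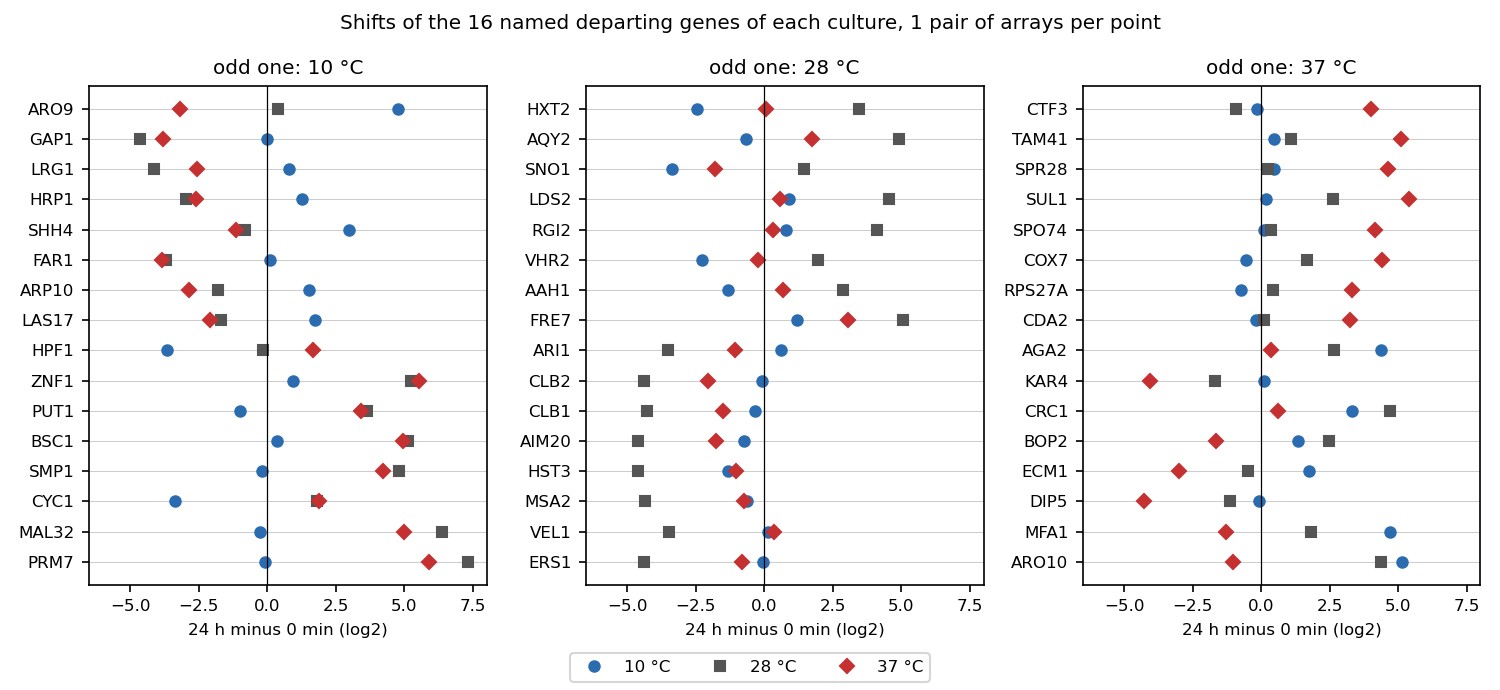
For each culture, the 8 genes with the highest and the 8 with the lowest departures are shown by their 24 h minus 0 min shifts (log2) at 10 °C (circles), 28 °C (squares) and 37 °C (diamonds), 1 pair of arrays per point. In the first panel the squares and diamonds lie together away from the circles for most genes, and CYC1 is at 1.81 and 1.88 in the warmer cultures against -3.36 in the cold.

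Part of the upward departures at 37 °C began from a low start. Of 186 such genes 79 (42.5%) had a 0 min level more than 1 unit below both other starts, as did 1019 (18.7%) of all 5449 genes, and a low start enlarges the shift by construction. At 24 h 117 of the 186 ended above both other cultures, and 115 of the 145 downward genes below both. The 24 h level enters the call, and the share over all genes was not counted. CTF3, a kinetochore protein, had starts of 8.99, 9.09 and 4.96 and 24 h levels of 8.85, 8.16 and 8.96, so the cultures ended within 1 unit of each other (departure 4.53, adjusted p = 7.7e-07). COX7, a cytochrome oxidase subunit, went from 5.15 to 9.56 in the heat, against 24 h levels of 11.87 and 14.02. TAM41, of cardiolipin synthesis, and RPS27A, a small-subunit ribosomal protein, also began low, at 5.85 and 8.22, against starts of at least 10.23 and 13.35. SUL1, a sulfate permease, went from 7.66, 10.79 and 5.36 to 7.82, 13.41 and 10.76, so the heat culture ended below the control. The part of the amplification kit in these low starts cannot be told apart from the series.

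Sporulation genes were among the upward departures whose start did not stand apart. SPR28, a septin of spore formation, was dim at 0 min in every culture (4.50, 4.49 and 4.86), stayed at 4.97 and 4.75 at 10 and 28 °C, and stood at 9.50 at 37 °C (departure 4.28, adjusted p = 1.7e-05). SPO74, a component of the meiotic spindle pole body, went from 4.58 to 8.74 at 37 °C and ended at 4.86 and 4.77 in the others. CDA2, a chitin deacetylase of the spore wall, ended at 6.0, 6.10 and 8.70. Of 46 meiosis and sporulation genes 5 departed upward at 37 °C (10.9%, against 3.41%).

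Downward departures at 37 °C included pheromone genes and metabolite transporters. S288C is an alpha strain, so it makes alpha factor and normally keeps the genes of the opposite a mating type off. MFA1, an a-factor gene, went from 8.38 to 13.09 in the cold and from 8.50 to 10.34 in the control, but from 8.55 to 7.25 in the heat (departure -4.57, adjusted p = 0.0011). AGA2, an a-agglutinin subunit, followed, from 6.47, 6.78 and 5.12 to 10.84, 9.43 and 5.46. All 7 a-specific genes had positive shifts at 10 and 28 °C and 4 did at 37 °C, with medians of 2.55, 1.35 and 0.35. Limma called 0 of the 7 in the shared shift, and 5 had an unadjusted p under 0.05.

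Of the 4 alpha-specific genes 1 fell in the shared shift, and at 10 °C 2 had positive and 2 negative shifts. MF(ALPHA)1, the main alpha-factor gene, held 14.19 and 14.46 in the cold, and went from 14.17 to 11.84 at 28 °C and from 12.85 to 8.48 at 37 °C. The gene that fell was MF(ALPHA)2, from 14.20, 14.27 and 13.19 to 12.38, 10.34 and 8.12. The list of 4 had medians of -0.20, -2.38 and -3.38. KAR4, a factor of mating and meiotic genes, ended at 10.25, 8.60 and 4.99. The alpha-factor genes, markers of the labelled strain, were bright at every start.

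The remaining low departures at 37 °C were ARO10, DIP5, ECM1, BOP2 and CRC1. ARO10, which decarboxylates phenylpyruvate, started at 6.42, 6.75 and 9.79 and ended at 11.58, 11.12 and 8.78, a departure of -5.78 (adjusted p = 0.016). With ARO9 it belongs to aromatic amino acid breakdown, and in both genes the heat start was the highest of the 3. DIP5, the permease for acidic amino acids, stood at 13.36, 13.34 and 13.22 at 0 min and at 13.27, 12.19 and 8.93 at 24 h. CRC1, the carnitine carrier of mitochondria, shifted by 3.33, 4.70 and 0.63. Of 21 gluconeogenesis genes 3 departed downward at 37 °C (14.3%, against 2.66%), and of 19 tricarboxylic acid cycle genes 3 (15.8%). Among the latter, CIT3 started at 7.03, 7.22 and 10.41 and ended at 10.14, 11.21 and 11.23, highest in the heat. The share of all genes with a heat start more than 1 unit above both other starts was not counted. Of all 145 downward departures at 37 °C, 35 (24.1%) had such a start, which lowers the shift by construction. PDC5, a pyruvate decarboxylase isoenzyme, was an upward one, with shifts of -0.39, -0.55 and 2.36 (departure 2.83, adjusted p = 0.00013).

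The lists differed between the cultures in how much of the 24 h value was present at 8 h. The cold culture had 721 genes at least 2-fold higher and 649 lower already at 8 h, whereas the control had 158 and 124 and the heat culture 351 and 237. In G1 and S phase genes the median change from 0 min was -1.13 at 8 h and -1.39 at 24 h in the cold, against -0.39 and -2.52 in the control and -0.34 and -1.04 in the heat. General stress genes stood at 1.46 and 1.57 in the cold at these times, at 0.56 and 0.07 in the control and at 0.32 and 0.82 in the heat. Ribosome biogenesis genes turned between these times, from -0.78 to 0.19 in the cold and from -0.58 to 0.80 in the control. Respiratory chain genes were at 0.17 and 0.27 in the cold, 0.24 and 0.98 in the control and -0.13 and 1.39 in the heat. In the control and heat cultures most of the 24 h value of the G1 and S phase and respiratory lists was thus added after 8 h.

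**Figure D5:**
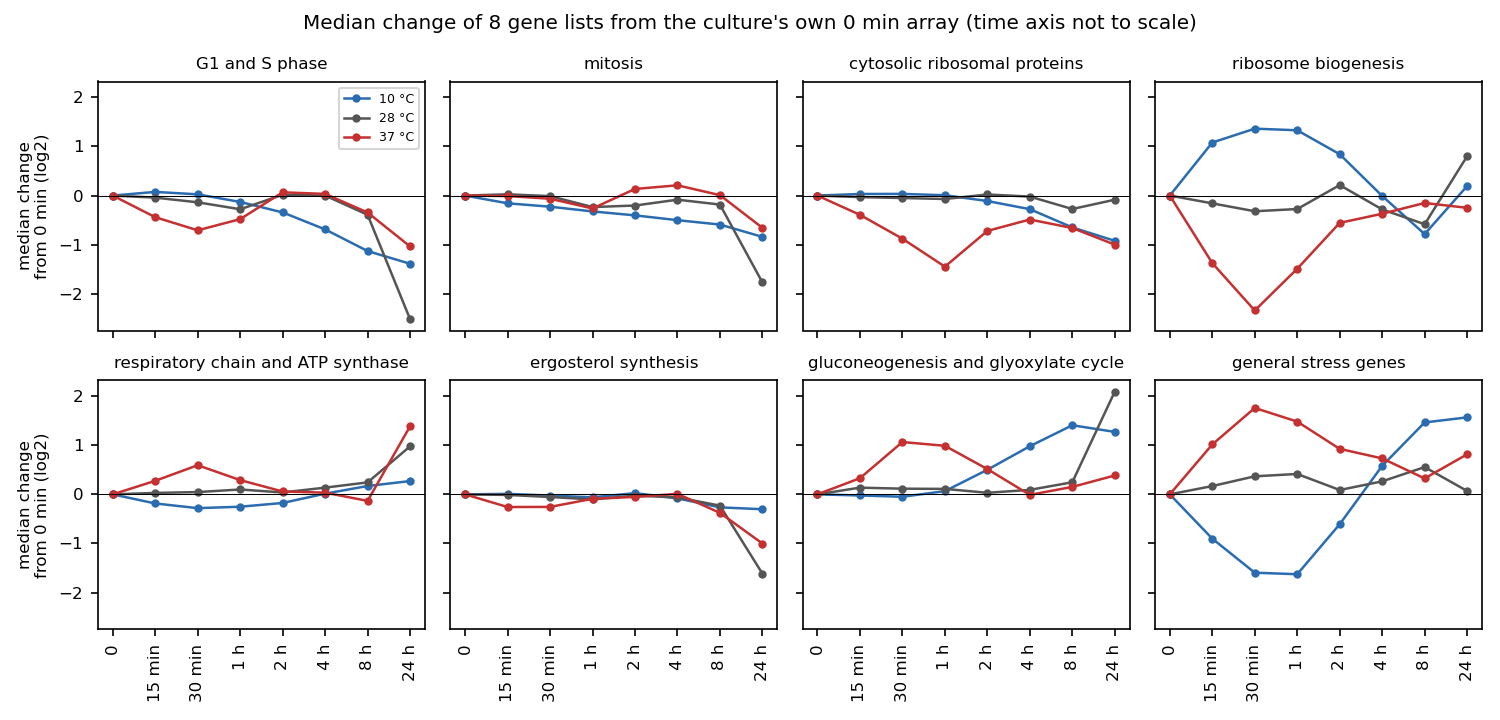
Lines give the median change (log2) of 8 gene lists from the culture's own 0 min array at each of 8 times, at 10 °C (blue), 28 °C (grey) and 37 °C (red), 1 array per point. In G1 and S phase, mitosis and ergosterol synthesis the grey line drops between 8 h and 24 h, to -2.52, -1.77 and -1.62.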

How the data were processed

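RNA of 24 yeast samples was hybridised to a 1-colour array with 10928 probe sets. The values the authors deposited are log2 levels made by RMA, according to the submitters' processing notes, which leave its version and the joint processing of arrays unstated. RMA hides changes of total RNA. Of the probe sets, 5498 had 1 yeast gene, and the values of the 47 genes with more than 1 were averaged, which left 5449 genes. Array medians lay between 10.69 and 10.78, and precision is limited by the number of arrays. No further normalization was applied.

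Fits used limma 3.58.1 in R 4.3.3 with Benjamini-Hochberg adjustment over all genes. The shared shift came from 6 arrays with series as a block (2 residual degrees of freedom, prior 4.98). The departures came from 24 arrays with a mean per series in 4 windows, 0 min, 15 to 60 min, 2 to 8 h, and 24 h (12 residual degrees of freedom, prior 3.55). The spread between times within the middle windows stands in for that between cultures. On simulated data of 5449 genes the shared fit recovered 63% of changes of 1 log2 unit and 99% of changes of 2. The departure fit at 28 °C recovered 80% of changes of 2 and 96% of changes of 3. In the shared simulation the change was equal in all 3 cultures, and the noise came from the fit of 24 arrays. Its rates thus leave out the differences between temperatures, against which the shared shift is tested in the real data.

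Named genes are the 12 highest and 12 lowest shared shifts, the 8 highest and 8 lowest departures of each culture, list members with the smallest p, largest shift or largest departure, and a set reported in any case. The members and lists were chosen with earlier results of these data known. Alternatives covered the block, the spread, the normalization, dim genes, array weights, the start levels and left-out arrays. No sequences were used here.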

Additional observations from a re-analysis of the deposited data

Results flagged for a closer look

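The 48 genes named for a departure moved differently in 1 culture than in the other two by a test of the difference itself, the limma fit of 24 arrays. That test rests on the spread between times and on single arrays at 0 min and 24 h. Values are departures on the log2 scale. At 10 °C the upward ones were ARO9 (6.17), GAP1 (4.20), LRG1 (4.15), HRP1 (4.03), SHH4 (3.97), FAR1 (3.86), ARP10 (3.85) and LAS17 (3.65). The downward ones in the cold were PRM7 (-6.69), MAL32 (-5.93), CYC1 (-5.21), SMP1 (-4.71), BSC1 (-4.69), PUT1 (-4.53), ZNF1 (-4.43) and HPF1 (-4.39). In the unshifted culture the shift exceeded that of both others for HXT2 (4.64), AQY2 (4.37), SNO1 (4.01), LDS2 (3.80), RGI2 (3.55), VHR2 (3.21), AAH1 (3.21) and FRE7 (2.93). It lay below both for ERS1 (-3.96), VEL1 (-3.72), MSA2 (-3.68), HST3 (-3.46), AIM20 (-3.38), CLB1 (-3.34), CLB2 (-3.33) and ARI1 (-3.30). Averaging the 10 and 28 °C starts turned the sign of VEL1 alone among these 48 genes. No alternative replaced the heat start, so the dependence of the heat departures on it was not tested. In the heat culture the shift was the highest for CTF3 (4.53), TAM41 (4.33), SPR28 (4.28), SUL1 (4.01), SPO74 (3.94), COX7 (3.84), RPS27A (3.46) and CDA2 (3.26). It was the lowest of the 3 for ARO10 (-5.78), MFA1 (-4.57), DIP5 (-3.67), ECM1 (-3.64), BOP2 (-3.55), CRC1 (-3.39), KAR4 (-3.27) and AGA2 (-3.16). The heat starts of CTF3, COX7, TAM41, RPS27A and SUL1 lay more than 2 log2 units below both other starts, and the part of the amplification kit was not tested.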

How the results depend on the processing

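For the shared shift, renewed quantile normalization (394 genes), the dim filter (409), leaving out probe sets that match several transcripts (399) and a robust prior with an intensity trend (421) kept the count of 409 within 1.5 times. A fit without the series block, by limma, gave 0 calls (787 genes at an unadjusted p under 0.05). Taking the spread from all 24 arrays gave 3345 calls, and a required change above 0.5 gave 69. Leaving out 1 culture gave 19 to 476. For the departures, leaving out the first hour gave 670 genes at 10 °C, 259 at 28 °C and 144 at 37 °C. Array weights, whose estimate did not converge, gave 2021, 1438 and 1184, and moved the upward share at 37 °C from 56.19% to 46.11%. Taking the 28 °C start as the mean of 0 min to 4 h gave 913 at 28 °C and 486 at 37 °C. Averaging the 10 and 28 °C starts, chosen after seeing the data, gave 1467, 826 and 326, and turned VEL1 at 28 °C to 1.37. Leaving out 1 time point gave 895 to 1363, 386 to 767 and 237 to 496. Of 1957 values of single genes under an alternative 1657 kept direction and call, 211 lost the call, 79 gained it and 10 changed sign. Those 10 were VEL1 and shared shifts that had not passed. Leaving out 1 culture moved GPH1 between -0.43 and 0.90, OLE1 between -0.28 and 0.066, SNZ1 between -0.87 and 0.48, TPS1 between -0.28 and 0.36, CTT1 between -1.05 and 0.77, HXT2 between -1.19 and 1.76 and HXT3 between -0.52 and 0.27. The causes were not tested.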

Other observations

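The following genes were chosen after their values were seen. Genes at least 2-fold apart between the 10 and 28 °C cultures at 0 min numbered 30, and 27 of them were lower in the 10 °C culture. Several are known targets of Zap1, the activator of zinc-responsive genes. ZPS1, a wall protein made under zinc shortage, stood at 11.09 in the 10 °C culture and 14.51 in the 28 °C culture at 0 min, and at 10.41 and 14.42 at 24 h. ADH4, an alcohol dehydrogenase, stood at 12.17 and 14.45 at 0 min, and ZAP1 itself at 10.07 and 11.68. YOR387C, a close relative of VEL1, stood at 6.91 and 13.56. The 37 °C culture resembled the 10 °C one in these genes at 0 min, with 10.22 for ZPS1, 12.61 for ADH4, 9.87 for ZAP1 and 7.47 for YOR387C. In the 28 °C culture YOR387C stayed between 13.21 and 14.42 up to 8 h and stood at 10.65 at 24 h. The zinc transporter genes ZRT1, ZRT2 and ZRT3 were also higher at 28 °C than at 10 °C at 0 min, by less than 1 log2 unit. The starts of the cultures thus differed in these genes, and the cause was not tested.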
